A study of Mus musculus with 21 samples.

Results

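Wnt ligands are secreted, lipid-modified glycoproteins that bind Frizzled receptors and either stabilise β-catenin or act without it, for example on cell polarity and movement. In skin they are known for the formation and cycling of hair follicles and for the renewal of the epidermis, and keratinocytes are themselves a source of several of them. The mouse genome carries a family of Wnt genes, and all 19 had an entry in the expression data analysed here. The 10 described below, Wnt3, Wnt4, Wnt5b, Wnt6, Wnt7a, Wnt7b, Wnt9a, Wnt10b, Wnt11 and Wnt16, were found by gene symbol among 22050 entries, and the other 9 Wnt genes are set beside them where a comparison needs it. The question was which of these ligands GFP+ keratinocytes make at all, and whether their levels differ after long-term p16 expression.

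mRNA-seq was performed on GFP+ epidermal keratinocytes from the dorsal skin of mice on a mixed FVB, C57Bl and 129sv background. In K5-rtTA/tet-p16/tet-GFP mice, doxycycline (dox) switches on human p16 and GFP in cells that use the keratin 5 promoter, and K5-rtTA/tet-GFP control mice switch on GFP alone. Both received dox from 3 weeks of age for 6 months, and by the methods mice induced for this long were males. Live cells negative for CD140a, CD45 and CD31 were sorted for GFP, about 80000 cells pooled from 3 mice made 1 sample, and there were 4 samples per group. Values are averages over the sorted cells, and in such bulk samples fewer cells of a type and less RNA per cell cannot be told apart.

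The values are read counts scaled by the size factor of their sample, called normalized read counts below. Since the low values of each sample were all multiples of what 1 read is worth, the reads could be recovered. A sample held between 1760953 and 3414362 reads on genes, with control replicates 2 and 4 the shallowest at 2068248 and 1760953. A ligand was taken as detected in a group when every sample of it had more than 3 reads, as a trace when some but not all samples had, and as under the limit when none had. This limit corresponds to normalized read counts of 2.23 to 4.58, depending on the sample, and covers counting error only.

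A pair of p16 libraries needs mention before the results. The human p16 transgene had 1, 1, 3 and 1 reads in controls 1 to 4 and 13, 18 and 9 reads in p16 replicates 2 to 4, but 2 reads in the library labelled p16 replicate 1, inside the control range. Over the 4 p16 samples it was at least 2.67-fold higher (exact two-sided permutation test, p = 0.0571). The transgene was under the limit in control cells and a trace in p16 cells. In limma, the test described below, it was not called (adjusted p = 0.0952). Mouse Cdkn2a had at most 7 reads in any sample. p16 replicate 4 stood apart from the other p16 libraries over all genes, with a chi-square per degree of freedom of 6.40 to 8.49 against each of them, where the other p16 pairs had 2.95 to 3.19 and the control pairs 3.45 to 5.03. It also had the highest value of all 8 samples at 10 of the 14 Wnt genes with a mean of at least 1. For those of the 10 ligands detected in both groups, values are therefore given with and without these libraries.

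RNA of 7 of the 10 ligands was detected in the sorted GFP+ cells of both groups, namely Wnt3, Wnt4, Wnt5b, Wnt6, Wnt7b, Wnt11 and Wnt16. Wnt7a, a relative of Wnt7b, was a trace in both groups, with 2, 5, 1 and 3 reads in controls 1 to 4 and 6, 2, 6 and 9 in the p16 samples. Wnt10b, a ligand of hair follicle placodes, was under the limit in control cells, with 2, 1, 1 and 1 reads, and a trace in p16 cells, with 0, 4, 1 and 4. Wnt9a was under the limit in both groups, with at most 2 reads in any sample. The limit matters for Wnt5b, which had as few as 4 reads in control replicate 2. After reads were thinned to the same depth, Wnt5b was no longer detected in both groups. With more than 10 reads asked of every sample, 4 ligands remained detected (Wnt3, Wnt4, Wnt6 and Wnt7b).

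Of the other 9 Wnt genes, Wnt3a, Wnt5a and Wnt10a were detected in both groups, and Wnt2 was detected only in p16 cells, with 1 or 2 reads in each control, although not after reads were thinned to the same depth or at more than 10 reads. Wnt8a had 1 read in all, Wnt9b at most 3 reads in any sample, and Wnt1, Wnt2b and Wnt8b had 0 reads in all 8 samples. A count of 0 over the 22717783 reads of the 8 samples allows an expected count of up to 3, so these genes were not detectable at this depth, which is not the same as absent.

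**Figure D1:**
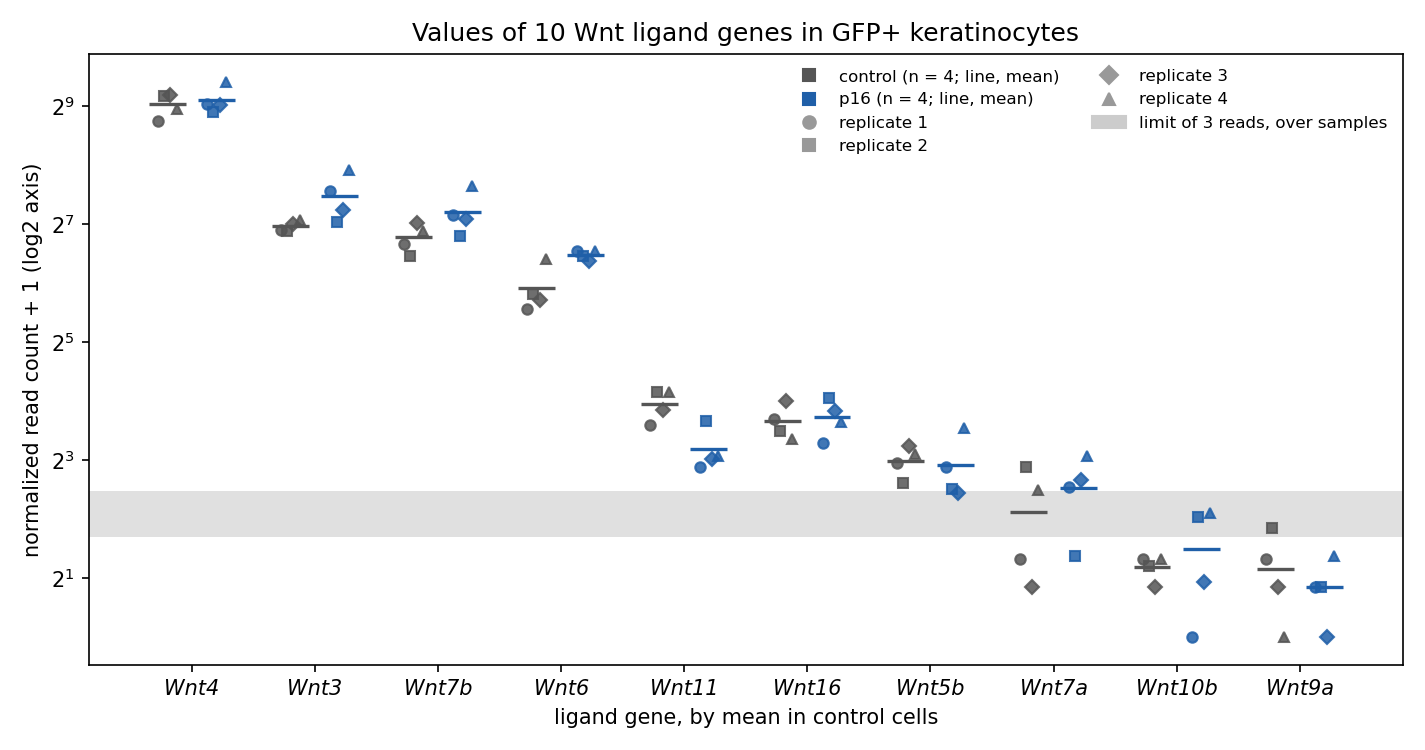
Normalized read count + 1 (log2 axis) of the 10 ligands in each control (grey) and p16 (blue) sample, with a symbol for each replicate number, a line at each mean (n = 4), and a grey band for the value of 3 reads across samples. Wnt4 was at 429.5 to 682.4 in all 8 samples, and Wnt9a did not exceed 2.6 in any.

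Among these 10, Wnt4, which is known in skin from both epidermis and dermis, had by far the most reads. Its normalized read counts were 429.5, 580.1, 587.1 and 495.0 in controls 1 to 4 and 523.7, 475.5, 519.6 and 682.4 in p16 libraries 1 to 4. The next was Wnt3, at 118.0, 116.8, 127.8 and 132.9 in control cells, with Wnt7b at 100.1, 87.3, 129.5 and 117.6. The Wnt3 and Wnt7b ranges overlapped in both groups, although Wnt3 was above Wnt7b in every sample but control replicate 3. Wnt6 followed at a mean of 59.2 in control cells, below every Wnt7b value. Wnt11 (14.5) and Wnt16 (11.6) overlapped each other in control cells, and Wnt5b (6.95) lay below Wnt16 without overlap. In p16 cells the lower end of this order was closer, since Wnt16 (12.3) and Wnt11 (8.15), and Wnt11 and Wnt5b (6.55), overlapped.

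These libraries count transcript 3′ ends by the methods, which makes values per transcript the natural scale, but levels were also divided by the length of the longest annotated transcript. On that scale Wnt4 had 125 ± 17.9 per kb against 131 ± 21.6 after p16 expression (SD, n = 4 per group), and the Wnt3 means were 40.3 and 57.8 per kb. Wnt10a, which had an annotated transcript of 2468 bases against 4194 for Wnt4, was then above Wnt4 without overlap in both groups, at 171 ± 15.2 per kb in control cells. As deposited, Wnt4 and Wnt10a overlapped in both groups. The means of Wnt3, Wnt7b and Wnt6 kept their order on both scales and in both groups, with overlapping neighbours per kb.

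Taken as shares of the summed values of all 19 Wnt genes, the 10 ligands made up 60.6%, 60.6%, 65.3% and 63.0% in controls 1 to 4 and 56.2%, 55.7%, 56.1% and 55.9% in the p16 samples. The summed value of the 10 was 854 ± 88.6 against 998 ± 182 after p16 expression (SD, n = 4 per group), with the highest, 1258.7, in p16 replicate 4. The sum over all 19 was 1367 ± 115 and 1783 ± 326. Wnt4 alone was 38.1% ± 2.69 of that sum in control cells and 30.9% ± 0.755 in p16 cells (SD, n = 4 per group), while Wnt10a was 30.9% ± 1.41 and 32.7% ± 1.87. These shares are descriptions and were not tested, and a share falls when other members rise.

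In the comparison of p16 with control cells, none of the 10 ligands passed the threshold. The test was limma on log2(normalized read count + 1), run over the 12782 genes with a mean of at least 1, among them all 10, and a gene was called at a Benjamini-Hochberg adjusted p under 0.05. Over all genes 3.86% were called, 1.24% higher and 2.61% lower in p16 cells. At an unadjusted p under 0.05, 3 ligands were higher (Wnt3, Wnt6 and Wnt7b) and 1 lower (Wnt11), where 7.02% and 8.93% of all genes were. No ligand had groups without overlap, which 9.83% of the tested genes had. On recovered reads, edgeR (quasi-likelihood) called 0 of the 6 ligands it kept, where it called 4.29% of its genes, and DESeq2 called 0 of the 9 it gave an adjusted p (all but Wnt9a), where it called 3.55% of the 15391 genes it fitted, with or without an adjusted p. edgeR with a filter of at least 1 read in any sample called 1 ligand, Wnt6, and 4.10% of its genes. The median log2 fold change of the 10 was 0.08, or 0.07 with ligands under the limit set to their bound, beside 0.00 over all tested genes.

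Wnt6, a ligand of surface epithelia (ENSMUSG00000033227, chromosome 1 of GRCm38, 74771892 to 74785322), came closest to the threshold. Its normalized read counts were 46.0, 55.2, 51.8 and 84.0 in controls 1 to 4 and 91.9, 87.4, 82.5 and 92.1 in p16 libraries 1 to 4. Control replicate 4 lay inside the p16 range, and the other controls lay below it. The control and p16 means were 59.2 ± 16.9 and 88.5 ± 4.54 (SD, n = 4 per group), and 0.61 was the log2 fold change (SE 0.17, adjusted p in limma = 0.0758), and the exact two-sided permutation test gave p = 0.0571, where 4 samples against 4 allow 0.0286. Among samples, only leaving out control replicate 4 changed the call. Without it, the limma adjusted p was 0.0122 and the log2 fold change 0.79, and over the other alternatives the adjusted p ran from 0.0375 (edgeR with the lower filter) to 0.241. The p16 mean was 87.3 both without the library labelled p16 replicate 1 and without p16 replicate 4.

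Wnt3, a ligand that acts through β-catenin (ENSMUSG00000000125, chromosome 11, 103774150 to 103817957), had 188.7, 129.6, 150.7 and 241.7 in p16 libraries 1 to 4, against 116.8 to 132.9 in control cells. All p16 values but that of replicate 2 were above every control. The control and p16 means were 124 ± 7.78 and 178 ± 49.2 (SD, n = 4 per group), and 0.48 was the log2 fold change (SE 0.16, adjusted p in limma = 0.143; exact two-sided permutation test, p = 0.0571). Without p16 replicate 2 the adjusted p in limma was 0.0408, where 17 alternatives ran from this value up to 0.331. Without p16 replicate 4 the p16 mean was 156 ± 30.0 (SD, n = 3), and without the library labelled p16 replicate 1 it was 174 ± 59.6 (SD, n = 3). When values were rescaled to the same total in every sample, an alternative of the permutation test chosen after seeing the data, the groups no longer overlapped for Wnt3 and Wnt6 (exact permutation p = 0.0286 for each). With the same upper quartile in every sample, also chosen then, both stayed at an exact permutation p of 0.0571.

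Wnt7b, which also acts through β-catenin and is known from hair follicle cycling (ENSMUSG00000022382, chromosome 15, 85535437 to 85582473), had 141.5, 110.9, 135.7 and 200.6 in p16 libraries 1 to 4. Only p16 replicate 2 lay within the control range of 87.3 to 129.5. The control and p16 means were 109 ± 18.7 and 147 ± 38.0 (SD, n = 4 per group), and 0.42 was the log2 fold change (SE 0.17, adjusted p in limma = 0.250; exact two-sided permutation test, p = 0.114). Without p16 replicate 4 the p16 mean was 129 ± 16.3 (SD, n = 3) and the log2 fold change 0.26 (adjusted p in limma = 0.462), and without the library labelled p16 replicate 1 the mean was 149 ± 46.3 (SD, n = 3).

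Wnt4 (ENSMUSG00000036856, chromosome 4, 137277489 to 137299726) had a mean of 523 ± 75.0 in control cells and 550 ± 90.7 in p16 cells (SD, n = 4 per group). The log2 fold change was 0.07 with a 95% confidence interval from -0.20 to 0.35 (adjusted p in limma = 0.861), the narrowest interval among the 10. It was 0.09 without the library labelled p16 replicate 1 and -0.04 without p16 replicate 4. Wnt16, which is known for roles in bone and in keratinocytes (ENSMUSG00000029671, chromosome 6, 22288227 to 22298522), had 11.9, 10.3, 15.0 and 9.2 in control cells and 8.8, 15.6, 13.3 and 11.5 in p16 cells. The groups covered nearly the same range, with a log2 fold change of 0.07 and a 95% confidence interval from -0.52 to 0.67 (adjusted p in limma = 0.941). Its p16 mean was 13.5 and 12.6 without these libraries in turn. Both intervals are for single genes, and a p that misses the threshold does not show that the levels were equal.

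Wnt11, known mainly for signalling without β-catenin (ENSMUSG00000015957, chromosome 7, 98835112 to 98855195), had the lowest log2 fold change of the 10 without being called. It had 11.1, 16.7, 13.4 and 16.8 in control cells and 6.4, 11.7, 7.1 and 7.4 in p16 cells. p16 replicate 2 lay inside the control range, and the other p16 samples lay below it. The control and p16 means were 14.5 ± 2.76 and 8.15 ± 2.40 (SD, n = 4 per group), and -0.78 was the log2 fold change (SE 0.29, adjusted p in limma = 0.180; exact two-sided permutation test, p = 0.0571). Its p16 mean was 8.73 when the library labelled p16 replicate 1 was dropped and 8.40 without p16 replicate 4. These values rest on 55 reads over the control samples and 40 over the p16 samples. Wnt5b, the closest relative of Wnt5a (ENSMUSG00000030170, chromosome 6, 119432531 to 119544347), had 28 and 32 reads, with means of 6.95 ± 1.42 and 6.55 ± 2.90 (SD, n = 4 per group). Its highest value, 10.7, and its lowest, 4.4, were both in p16 cells, and its log2 fold change of -0.13 did not differ from 0 beyond its error (standard error 0.34, adjusted p in limma = 0.913). Its p16 mean was 6.60 and 5.17 without these libraries in turn.

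For the 3 ligands that were not detected in both groups, depth limits what can be said. Wnt7a (ENSMUSG00000030093, chromosome 6, 91363981 to 91411363) had 11 reads over the control samples and 23 over the p16 samples, and its log2 fold change of 0.52 had a 95% confidence interval from -0.59 to 1.64 (adjusted p in limma = 0.704). Leaving out a sample gave 0.18 (control replicate 3) to 0.87 (p16 replicate 2), with 0.48 and 0.30 without p16 replicate 1 or 4, and dropping both samples numbered 3 gave 0.10. Wnt10b (ENSMUSG00000022996, chromosome 15, 98770712 to 98778150) had 5 and 9 reads and Wnt9a (ENSMUSG00000000126, chromosome 11, 59306928 to 59333552) had 5 and 4. No fold is given for either, and their limma adjusted p values were 0.963 and 0.897.

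**Figure D2:**
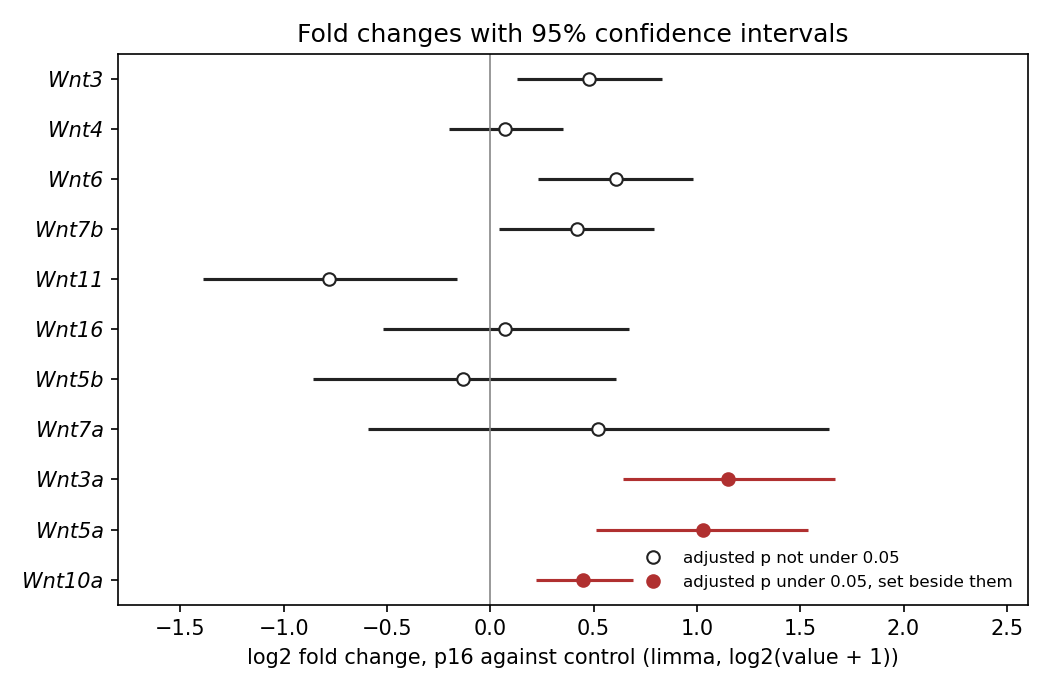
Log2 fold change of p16 against control cells (x axis) with its 95% confidence interval from limma on log2(normalized read count + 1), for 8 of the 10 ligands (open, black) and for Wnt3a, Wnt5a and Wnt10a (filled, red), n = 4 per group. Open points did not pass the adjusted threshold. Wnt6 was at 0.61 and Wnt11 at -0.78.

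All 4 of the other Wnt genes that could be tested were called higher in p16 cells, namely Wnt2, Wnt3a, Wnt5a and Wnt10a. The 10 ligands were set apart from these genes with earlier results of these data known. The contrast in calls between them is therefore not a result. Wnt2 had 10.4, 4.7, 17.7 and 3.3 in p16 cells and at most 1.7 in control cells (adjusted p in limma = 0.0375). It missed the threshold without any single control, in order of replicate (0.113, 0.0691, 0.0658 and 0.0650) and without p16 replicate 1 or 3 (0.140 and 0.136), and also with a pseudocount of 0.1 (0.0525). Wnt3a was 44.0 ± 13.2 against 99.3 ± 31.2 (SD, n = 4 per group; adjusted p in limma = 0.0151, 0.0581 without the library labelled p16 replicate 1). Wnt5a was 45.2 ± 10.8 against 96.2 ± 38.3 (SD, n = 4 per group; adjusted p in limma = 0.0269), and missed the threshold without control replicate 1, 2 or 3 (0.0984, 0.0554 and 0.0742) and without the library labelled p16 replicate 1 (0.0864). Wnt10a was 422 ± 37.5 against 580 ± 81.8 (SD, n = 4 per group; adjusted p in limma = 0.0326), and missed it without control replicate 1, 3 or 4 (0.115, 0.0786 and 0.0734) and without p16 replicate 1 or 3 (0.0679 and 0.0628). Dropping both samples numbered 3 ended all 4 calls in limma (0.188 for Wnt2, 0.0548 for Wnt3a, 0.0912 for Wnt5a and 0.132 for Wnt10a, adjusted). In the same order, the limma log2 fold changes were then 1.61, 1.17, 1.08 and 0.47, against 1.91, 1.15, 1.03 and 0.45 with all samples. With all samples, DESeq2 called all 4 (adjusted p of 0.0390, 9.15e-04, 0.00305 and 0.00794). Without p16 replicate 4, which had the highest values of Wnt3a, Wnt5a and Wnt10a, their p16 means were 86.4, 78.1 and 539.

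A ligand that passes a threshold and another that does not need not differ from each other, so the ratio between related ligands, each with 1 added, was tested per sample for 4 of 5 pairs. For Wnt5b against Wnt5a, the log2 ratio was -2.19, -2.95, -2.16 and -2.82 in controls 1 to 4 and -3.70, -3.53, -3.81 and -3.69 in p16 libraries 1 to 4. Every p16 sample lay below every control, a change of -1.15 (exact two-sided permutation test, p = 0.0286, or 0.143 adjusted over 5 pairs). Wnt5b and Wnt5a were put on different sides with earlier results of these data known. This p therefore cannot decide whether the ligands differ, and the ratio is given as a description. The same limit holds for the pairs with Wnt10a below. Wnt5a had 34.1 to 59.6 in control cells and 64.8 to 150.5 in p16 cells, whereas Wnt5b stayed within 4.4 to 10.7 in all samples.

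Wnt6 and Wnt10a, which lie 6193 bases apart on the same strand of chromosome 1, had a mean log2 ratio of -2.84 ± 0.36 in control cells and -2.69 ± 0.17 in p16 cells (SD, n = 4 per group). The change of 0.15 was within this spread (exact two-sided permutation test, p = 0.429, 0.905 adjusted over 5 pairs). Without control replicate 4 it was 0.34 and the groups did not overlap (exact permutation p = 0.0571), and it ran from 0.08 to 0.23 when another sample was left out. The ratio of Wnt7b to Wnt7a changed by -0.11 (exact permutation p = 1.00) and that of Wnt10b to Wnt10a by -0.36 (exact permutation p = 0.543, 0.905 adjusted over 5 pairs), both set by the few reads of Wnt7a and Wnt10b. With 0.1 added in place of 1 they were -0.31 and -0.85. Wnt9a against its neighbour Wnt3a, 16175 bases away on the other strand, was not tested because Wnt9a was under the limit in both groups. Wnt3 lies 24328 bases from Wnt9b, which was under the limit in both groups, and Wnt10b lies 11706 bases from Wnt1, which had no read in any sample.

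Ligands need lipid attachment and escort to leave the cell. Of 12 genes for lipidation and secretion, 1 was called higher and 0 lower, with a median log2 fold change of -0.02. The called gene was Wls, which carries lipidated ligands to the cell surface (chromosome 3, 159839672 to 159938664). It had 501.5, 562.1, 487.8 and 488.9 in control cells and 713.2, 587.9, 662.3 and 655.3 in p16 cells. All p16 samples were above all controls, but the limma adjusted p of 0.0464 was close to the threshold. With a sample dropped it passed in 2 of 8 fits, and without the library labelled p16 replicate 1 it was 0.171. Without p16 replicate 4 it was 0.0540, without p16 replicate 3 it was 0.115, and without control replicates 1, 3 or 4 it was 0.120, 0.118 and 0.109. It also missed the threshold with a pseudocount of 0.1 (0.0525), without a filter (0.0506) and without replicate 3 of both groups (0.230). Adjusted p values under the threshold came from edgeR (0.0471), edgeR with the lower filter (0.0429) and DESeq2 (0.0126). With the same total or upper quartile in every sample, the limma adjusted p was 0.0291 and 0.0497. The log2 fold change was 0.36 as reported and ran from 0.32 to 0.41 over the alternatives. Porcn, the enzyme that attaches the lipid, was at 39.8 ± 14.1 and 49.6 ± 3.93 (SD, n = 4 per group; adjusted p in limma = 0.447).

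Of the ligand-removing enzymes Notum and Trabd2b and 8 tested glypicans and syndecans, 3 were called lower in p16 cells and none higher. The shares over all tested genes were 2.61% lower and 1.24% higher. Trabd2b, a membrane protease that cleaves Wnt ligands, had 37.8, 20.5, 19.2 and 41.3 in control cells and 3.2, 3.1, 6.2 and 3.3 in p16 cells, and -2.60 was the log2 fold change (SE 0.33, adjusted p in limma = 4.16e-04). Notum, which removes the lipid, had at most 4 reads in any sample. Of the glypicans and syndecans, heparan sulfate proteoglycans that bind ligands at the cell surface, 2 were called lower and 0 higher, with a median of -0.17. Gpc6 was 36.6 ± 9.16 against 3.85 ± 1.70 (SD, n = 4 per group; adjusted p in limma = 8.49e-05), and Sdc1 was 2996 ± 448 against 2139 ± 217 (SD, n = 4 per group; adjusted p in limma = 0.0322). Whichever sample was dropped, Trabd2b and Gpc6 passed. Sdc1 passed in 3 of these 8 fits. Its adjusted p in limma was 0.113 without the library labelled p16 replicate 1, and 0.0760 and 0.0941 without p16 replicate 2 or 3. It was 0.0960 and 0.0918 without control replicate 3 or 4, and 0.216 without replicate 3 of both groups. Sdc1 was also called in edgeR (adjusted p of 0.0254) and DESeq2 (0.00368). Its log2 fold change was -0.48 as reported and ran from -0.56 to -0.38 over the alternatives.

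Of 16 tested receptors and polarity genes that work without β-catenin, none was called in limma, and at an unadjusted p under 0.05 there were 4 higher and 4 lower (median 0.05, or -0.01 with bounds). Ryk, a Wnt receptor, was at 614 ± 60.3 and 671 ± 52.7 (SD, n = 4 per group). Ror2, a receptor for Wnt5a, had 12.6, 3.9, 6.7 and 10.7 in control cells and 16.8, 13.3, 25.7 and 21.4 in p16 cells. The groups did not overlap, but at 0.0848 (adjusted p in limma) it was not called. Ror1 was at 19.6 ± 4.13 and 19.7 ± 5.77 (SD, n = 4 per group). Adgra2 and Reck, the co-receptor pair through which Wnt7a and Wnt7b signal in brain vessels, had at most 1 and 2 reads in any sample.

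The sequence around the gene starts was looked at in RefSeq windows of GRCm38.p6, 300 bases each. Of the 10 ligands, 9 had 1 or more windows, 12 in all. The 6-letter core CTTTGA of the sites bound by Tcf/Lef factors, searched on both strands, was in 2 of the 12, and in 16% of all 32851 windows. A match is a description and not a site. These are a window of Wnt11 and a downstream window of Wnt5b, shown 5′ to 3′ on the strand of the gene with the matched letters in capitals (TCAAAG is the core on the opposite strand).
Wnt11, chr7:98834862-98835161: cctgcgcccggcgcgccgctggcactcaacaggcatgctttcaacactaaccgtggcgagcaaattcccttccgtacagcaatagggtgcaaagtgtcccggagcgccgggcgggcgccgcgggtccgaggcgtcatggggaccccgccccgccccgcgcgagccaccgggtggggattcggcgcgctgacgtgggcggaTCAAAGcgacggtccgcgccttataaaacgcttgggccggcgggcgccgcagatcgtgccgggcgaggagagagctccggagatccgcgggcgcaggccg
Wnt5b, chr6:119449337-119449636: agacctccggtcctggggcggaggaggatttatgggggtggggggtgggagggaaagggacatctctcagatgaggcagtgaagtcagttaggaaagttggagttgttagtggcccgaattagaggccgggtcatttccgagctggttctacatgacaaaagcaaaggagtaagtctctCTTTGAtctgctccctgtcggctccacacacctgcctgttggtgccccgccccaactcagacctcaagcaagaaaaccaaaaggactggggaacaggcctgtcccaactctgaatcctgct
The Wnt11 window held 45 CG pairs and this Wnt5b window 7, where the median of all windows was 7. The window at the outer start of Wnt5b had 47. Ligands with many and with few reads both had windows rich in CG pairs, with 51 for Wnt4 and 58 for Wnt9a, and Wnt16 had 10.

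Because ligands differ between the cells of skin, marker lists are given beside these results, and their part in the ligand values was not tested. Krt5, the most abundant basal keratinocyte marker, had 11761 to 12279 reads in every sample whatever its depth, so its counts level off and its values follow the size factors. Sums led by such genes are therefore not compared. Sdc1 had 2109 to 4193 reads in a sample, and whether its values follow depth was not tested. No Wnt gene had more than 853 reads in a sample. For all marker lists, the shares over all tested genes were 1.24% called higher and 2.61% called lower. At an unadjusted p under 0.05 in limma they were 7.02% and 8.93%. Of 7 basal markers 1 was called, Itga3, which was higher. Of 8 differentiation markers, led by Krt10, 1 was called higher (Lor) and 2 lower (Ivl and Sbsn).

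Several follicle and gland markers were called lower in p16 cells, where 2.61% of all tested genes were. Of 8 markers of the hair follicle bulge, 7 were called lower, among them the most abundant, Krt15, with 7452 to 11381 reads in a sample. Krt15 was at 8442.8, 13136.4, 8594.2 and 12321.7 in controls 1 to 4, highest in the shallow replicates 2 and 4. It was at 6607.4 to 7834.0 in p16 cells (adjusted p in limma = 0.0463). Whether the counts of Krt15 level off like those of Krt5 was not tested. Of 8 tested sebaceous gland markers, 6 were called lower, with sums of 1526.7, 1383.5, 1607.8 and 1489.5 against 370.2, 646.5, 434.5 and 415.2, led by Scd1. Of 7 markers of the outer layer and isthmus, 3 were called lower (the most abundant, Krt17, was not), and of 10 tested markers of shaft, inner root sheath and matrix, 2 were (sums of 2502 ± 256 and 2748 ± 199, led by Gata3; SD, n = 4 per group). The ligand values thus come from samples that also differed in follicle and gland markers.

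Markers of other cell types differed in level. Of 8 tested fibroblast markers, 2 were called higher, Dcn and Sparc, and the sums were 1137.9, 980.6, 975.4 and 1061.8 in control cells and 1755.1, 1584.9, 1918.7 and 2355.7 in p16 cells, led by Sparc, while Lum was at 0 in every sample. At an unadjusted p under 0.05 there were 4 higher and 1 lower, and Col1a2 was at 10.4 ± 5.62 in controls and 2.67 ± 0.759 after p16 expression (SD, n = 4 per group; adjusted p in limma = 0.0571). Of 7 tested melanocyte markers, 2 were called lower, with sums of 549.0, 235.0, 138.5 and 265.8 against 75.2, 148.4, 74.6 and 51.7, led by Dct in control cells and by Mitf in p16 cells. T cell markers summed to 4.5 to 16.7 in any sample, led by Cd3d with Cd8a at 0, and endothelial markers to 6.1 to 12.0, led by Tie1 in control cells and Pecam1 in p16 cells, with Cdh5, Kdr, Emcn and Cldn5 at 0. Markers of Langerhans and myeloid cells summed to 123 ± 7.96 and 137 ± 17.9 (SD, n = 4 per group), led by Cd74, with Lyz2 at 0. Merkel cell markers summed to at most 8.1, led by Krt18 in control cells and Sox2 in p16 cells, and adipocyte markers to at most 1.5, led by Plin1 in control cells and Retn in p16 cells, with Adipoq, Lep, Fabp4 and Cfd at 0. In these last 5 lists, 3 T cell, 2 endothelial, 5 Langerhans or myeloid, 2 Merkel cell and 0 adipocyte markers were abundant enough to be tested. None of them was called in limma, and at an unadjusted p under 0.05 there were 1 lower T cell marker, 1 higher Langerhans or myeloid marker and 1 lower Merkel cell marker.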

How the data were processed

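Samples were grouped by their labels. Of 21 labelled samples, 8 were analysed (4 control, 4 p16) and the 13 of a second profiling were not analysed here. The submitters' processing notes name TopHat2, HTSeq, DESeq2 and GRCm38. The methods describe an adapted CEL-Seq2 protocol that reads transcript 3′ ends. The labels have CEL-Seq, but for replicate 3 of both groups they name Illumina's RNA sequencing protocol. Whether the replicate 3 libraries were made in another way was not tested. The authors deposited a signal per gene, the read count divided by a size factor, rounded to 1 decimal. The deposited group means, fold changes and p-values were not used. Reads were recovered by dividing by the value of 1 read (0.74183 to 1.5278), which gave whole reads for 100% of the values up to 200 reads, within rounding. No pair of libraries of a group agreed within sampling noise. By the methods a group had fewer independent experiments than replicates, so some replicates shared an experiment, without naming which, and the mice of both groups were siblings treated together. The p-values measure only the spread between samples.

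limma 3.58.1 in R 4.3.3 compared the groups on log2(value + 1), which understates the change of low genes, with a mean-variance trend and without a replicate block. Alternatives were a pseudocount of 0.1, no filter, a replicate block, each sample left out, replicate 3 of both groups left out, rescaled values, edgeR 4.0.16 and DESeq2 1.42.0, and for detection 10 reads or reads thinned to 1760953 per sample. The fits were tested on simulated data. Rescaling for the permutation test was added after seeing the data. The members and gene lists were chosen with earlier results of these data known. Named were all Wnt genes, Porcn, Wls, Notum, Ror1, Ror2, Ryk, Adgra2 and Reck, and other pathway genes that were called. Also named were the most abundant gene in each group and genes at 0 of each cell type list, human and mouse p16, and the GFP transgene. Genes with a pattern like that of a called ligand would have been named, but none of the 10 was called. Called cell type markers named in counts, and the other fibroblast markers given with values, were chosen after their values were seen. For 2 listed symbols with several entries the more abundant one was used. Coordinates and transcript lengths are from GENCODE M21 (GRCm38).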

Additional observations from a re-analysis of the deposited data

Results flagged for a closer look

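Among 82 groups of 4 values examined, 6 held a sample far from the other 3, where chance gives about 1 in 20. Wnt10a was at 701.3 in p16 replicate 4, above the other p16 samples, and Sdc1 at 2464.2 in the same library. Porcn was at 61.0 in control replicate 3, while the other controls were at 32.1 to 33.6. The Wnt6 to Wnt10a log2 ratio was -2.30 in control replicate 4, the library with the control value of Wnt6 inside the p16 range. Trabd2b was at 6.2 in p16 replicate 3, and Dct, a melanocyte marker, at 47.6 in p16 replicate 2.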

How the results depend on the processing

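As reported, limma called 159 genes higher and 334 lower. Leaving out a sample gave 69 to 196 higher and 177 to 343 lower, and leaving out replicate 3 of both groups gave 66 and 157. With a replicate block they were 216 and 392. Same-numbered samples deviated together with r of 0.004 to 0.083, and differently numbered ones with r of -0.1 to 0.058. These weak correlations show no clear pairing by number but cannot exclude one. The block changed no call of the 10 ligands (adjusted p in limma 0.0508 for Wnt6, 0.0654 for Wnt3 and 0.104 for Wnt7b). It ended the call of Wls (adjusted p in limma 0.0551). Ligands called higher numbered 0 as reported, 0 to 1 when a sample was left out (Wnt6 without control replicate 4, Wnt3 without p16 replicate 2), and 1 with edgeR and a filter of at least 1 read in any sample. Ligands called lower numbered 0 in every alternative run. Detected ligands fell from 7 to 4 at more than 10 reads and to 6 after thinning, where Wnt5b was lost. Of the 10 Wnt genes detected in both groups, 6 kept their rank per kb in control cells and 5 in p16 cells. Small log2 fold changes turned sign for Wnt4 (-0.04 to 0.14 over the fits without a sample), Wnt16 (-0.04 to 0.21), Wnt5b (-0.36 to 0.01, and 0.10 without replicate 3 of both groups) and Ror1. Ror1, at -0.01, ran from -0.16 to 0.13 without a sample, and was 0.12 without replicate 3 of both groups, 0.02, 0.03 and 0.02 in edgeR, edgeR with the lower filter and DESeq2, and 0.02 at the same total. The Wnt7b to Wnt7a log2 ratio ran from -0.54 to 0.33 without a sample and was 0.44 without replicate 3 of both groups, and that of Wnt10b to Wnt10a ran from -0.66 to 0.03. The cause was not tested, except that fits with fewer samples have less power. Scaling to the same total moved the median of all genes to 0.03. With 3 samples against 3, the exact test cannot go under 0.05. Depth limits Wnt5b, Wnt7a, Wnt9a and Wnt10b.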
